A study of Mus musculus with 6 samples.

Results

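The 10 genes described here encode NF-kB, a family of transcription factors, and proteins listed as its inhibitors, most of which hold it in check. They were taken by gene symbol from the deposited count and FPKM tables: the 5 subunit genes Rela, Relb, Rel, Nfkb1 and Nfkb2, and the inhibitor genes Nfkbia, Nfkbib, Nfkbie, Nfkbiz and Tnfaip3. All 10 were among the 18002 listed genes, and all 10 passed the filter on low counts that left 13708 genes to test. RNA came from primary cells of mouse jawbone, described by the submitters as derived from the periosteum, the cell layer that covers bone. The cells had been cultured for 48 h either as spheroids, which are self-assembled round aggregates, or as a flat monolayer, with 3 libraries per format, titled aggregate_P and monolayer_P. The labels give no strain, age, genotype or added agent. Nothing in them tells whether replicates are separate cultures, animals or repeat preparations, so a p-value here reflects the spread of these samples alone, and that spread may be technical.

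NF-kB subunits act as pairs that wait in the cytoplasm, bound by IkB inhibitor proteins. Signals from TNF, interleukin-1 or Toll-like receptors activate the IKK kinase complex, which marks IkB for destruction and frees the pair to enter the nucleus. Among the genes switched on there are genes for the inhibitors themselves, which close a negative feedback loop. A slower branch, driven by the kinase encoded by Map3k14, processes the Nfkb2 product and acts through Relb. In bone the pathway is best known for its part in osteoclast formation and in the response of osteogenic cells to inflammation.

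Total counts lay between 21701046 and 21889110 per library. All 10 markers of mesenchymal and osteogenic cells passed the filter on low counts, with a summed level of 82612 to 83524 CPM (expected counts scaled to a common library size with TMM factors) in monolayers and 64791 to 66759 CPM in spheroids. Of the 10, 5 rose, 3 fell and 2 did not pass the test, with a median log2 fold change of 0.09. Over all tested genes 37.1% rose and 37.1% fell. The lower sum in spheroids lies in the collagen genes Col1a1, at 28324 ± 390 CPM (SD, n = 3) in monolayers and 12884 ± 307 in spheroids, and Col1a2, at 20228 ± 62.5 and 10042 ± 262 CPM.

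All 10 members differed between the formats in edgeR's quasi-likelihood test at a Benjamini-Hochberg adjusted p below 0.05, with 9 higher and 1 lower in spheroids. Differences were widespread among tested genes, of which 74.2% passed the same test, with spheroids above monolayers in 37.1% and below them in 37.1%. The CPM ranges of the formats did not overlap for any of the 10 members, against 75.8% of all tested genes for which the ranges were apart. Of the members, 5 were at least 1.5-fold higher in spheroids, namely Nfkbiz, Nfkbia, Tnfaip3, Nfkbie and Relb, where 19.0% of tested genes met that rule. The median log2 fold change over the 10 members was 0.63, and that over all tested genes was -0.0016. The sizes differed by list: the median was 1.28 for the 5 genes listed as inhibitors and 0.31 for the 5 subunits. The inhibitor list includes Nfkbiz, whose product is also needed for full induction of some targets.

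**Figure D1:**
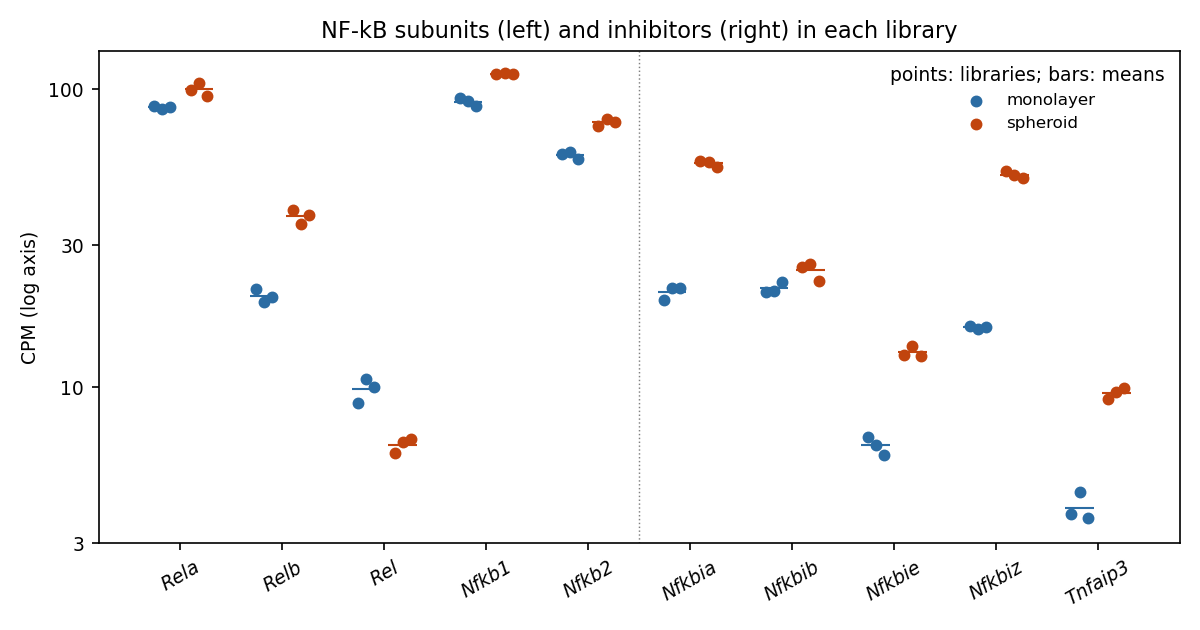
CPM on a log axis of the 10 members in each of the 3 monolayer (blue) and 3 spheroid (orange) libraries, with bars at the means. Points of the 2 formats do not overlap for any gene, Rel is the 1 gene that is lower in spheroids, and the widest gaps are those of Nfkbia, Nfkbiz and Tnfaip3.

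**Figure D2:**
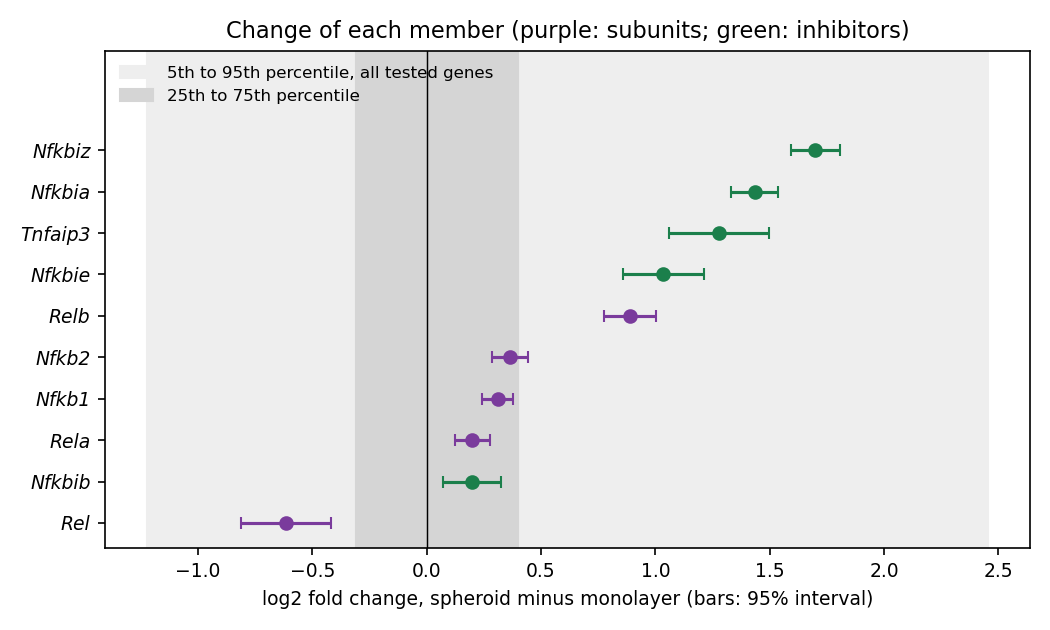
Log2 fold change (spheroid minus monolayer) of each member with its 95% interval, subunits in purple and inhibitors in green, over bands that hold the 5th to 95th and the 25th to 75th percentile of all 13708 tested genes. Rela, Nfkb1, Nfkb2 and Nfkbib lie inside the inner band, which runs from -0.31 to 0.40, and the other 6 lie outside it.

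Markers of other cell types moved in the same libraries, in which 37.1% of all tested genes were higher in spheroids. Of 12 macrophage and leukocyte markers 10 were tested and all 10 rose, with a summed level of 28.3 to 33.1 CPM in monolayers and 151 to 158 CPM in spheroids. Most of that sum was Lyz2, at 18.4 ± 1.32 CPM (SD, n = 3) in monolayers and 101 ± 3.38 in spheroids. The untested Aif1 and Cx3cr1 had 5 and 19 reads over the 3 monolayers and 4 and 7 over the 3 spheroids. None of the 12 was at 0 over a whole format. Ptprc, the pan-leukocyte marker, stood at 1.37 ± 0.230 and 2.89 ± 0.413 CPM. All 10 endothelial markers rose, with sums of 66.8 to 68.2 CPM in monolayers and 373 to 392 CPM in spheroids, among them Pecam1 at 11.8 ± 0.0913 and 76.7 ± 0.965 CPM. All 8 tested of 10 skeletal muscle markers and all 7 tested of 8 Schwann cell markers rose as well. Their sums went from between 66.0 and 68.4 to between 1282 and 1381 CPM and from between 16.7 and 19.7 to between 105.5 and 109.5 CPM. No marker of these 3 lists was at 0 over a whole format. In these bulk samples, more cells of a type and more marker RNA per cell in spheroids cannot be told apart. The part of these cells in the changes of the 10 members was not tested.

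Rela (gene ID 19697, chr19:5637442-5648134, plus strand) encodes p65, the main activating subunit of the fast pathway. Gene coordinates here and for the other members are those of GRCm38.p6. Rela stood at 88.1, 85.8 and 87.4 CPM in monolayer replicates 1, 2 and 3 and at 99.8, 105 and 94.9 CPM in the spheroids. All 3 spheroids lay above all 3 monolayers, and the log2 fold change was 0.20 with an SE of 0.04 (adjusted p = 1.70e-05), or 1.15-fold. Of all tested genes 34.7% had a larger log2 fold change, so the difference was larger than the replicate spread but small. Nfkb1 (gene ID 18033, chr3:135584655-135691969, minus strand) encodes the precursor of the subunit that most often pairs with the Rela product. It stood at 93.3, 91.4 and 88.2 CPM in monolayers and at 112, 114 and 112 CPM in spheroids, which gives 0.31 ± 0.03 as log2 fold change (adjusted p = 9.20e-10). Again every spheroid lay above every monolayer. Here and below, ± after a log2 fold change is its SE, and ± after a level, share or ratio is the SD.

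The genes of the slower branch differed from each other in size. Relb (gene ID 19698, chr7:19606217-19629438, minus strand), whose product pairs with the processed Nfkb2 product, stood at 21.4, 19.3 and 20.1 CPM in monolayers and at 39.2, 35.4 and 38.0 CPM in spheroids. This was the largest change of a subunit, 1.85-fold higher in spheroids, or 0.89 ± 0.06 as log2 fold change (adjusted p = 2.30e-15), and 14.1% of tested genes had a larger one. Nfkb2 (gene ID 18034, chr19:46300994-46312400, plus strand) stood at 60.8, 61.7 and 58.6 CPM in monolayers and at 75.5, 79.7 and 77.8 CPM in spheroids, which is 0.36 ± 0.04 on the log2 scale (adjusted p = 5.20e-10). The 95% interval of the Nfkb2 change, 0.28 to 0.44, lay below that of Relb, which began at 0.77. The counts of both genes had decimals in 6 of 6 libraries, so they are estimates rather than tallies of whole reads. In the GENCODE annotation 11.6% of the exon bases of Nfkb2 also lie in exons of the non-coding gene AC114539.1 and 6.52% in exons of Psd, both on the opposite strand. Psd stood at 2.59 ± 0.411 CPM (SD, n = 3) in monolayers and at 5.73 ± 0.564 CPM in spheroids, and reads of overlapping genes cannot be told apart where strand was not used in counting, which the labels leave unsaid.

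Rel (gene ID 19696, chr11:23736847-23770969, minus strand), which encodes c-Rel, a subunit best known from lymphocytes and myeloid cells, was the only member of the 10 that was lower in spheroids. It stood at 8.83, 10.6 and 10.1 CPM in monolayers and at 6.03, 6.54 and 6.71 CPM in spheroids. The formats did not overlap, and the log2 fold change was -0.61 ± 0.10 (adjusted p = 1.23e-06), or 1.53-fold lower. On the log2(FPKM + 1) scale, which understates changes of low genes, the difference was -0.30. Rel was at the low end of the family, with 638 reads over the 3 monolayers and 424 over the 3 spheroids.

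FPKM, which is normalised to gene length and library size, allows levels to be set against each other between genes. In monolayers Rela made up 40.5% ± 0.554 of the FPKM of the 5 subunits, Nfkb1 26.5% ± 0.434, Nfkb2 20.9% ± 0.435, Relb 10.6% ± 0.428 and Rel 1.49% ± 0.152 (SD, n = 3). The order of the 5 subunits was the same in spheroids. There Relb was at 15.5% ± 1.03, with 16.2%, 14.3% and 15.9% in the 3 libraries against 10.1% to 10.9% in monolayers. Rela was at 36.4% ± 1.26 and Rel at 0.771% ± 0.0475, and neither range overlapped that in monolayers. The shares of Nfkb1, at 26.0% ± 0.215, and of Nfkb2, at 21.3% ± 0.591, overlapped between the formats. The summed FPKM of the 5 subunits was 87.7 ± 1.03 in monolayers and 113.7 ± 1.61 in spheroids. These shares are descriptions of mRNA, given without a test.

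**Figure D3:**
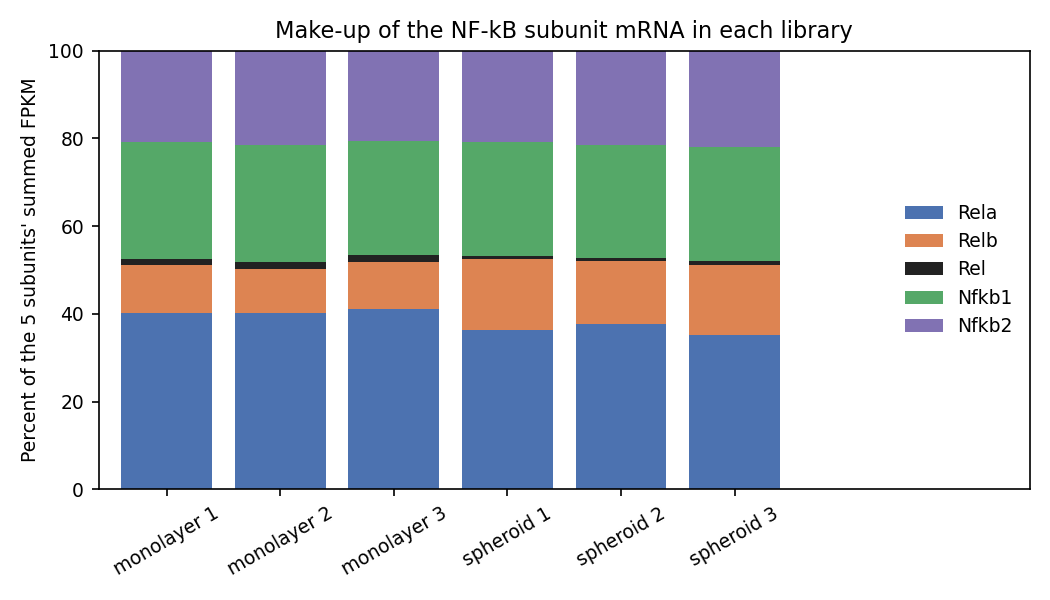
Share of each of the 5 subunit genes in their summed FPKM, as percent, in each of the 3 monolayer and 3 spheroid libraries. The Relb part (orange) is larger in every spheroid library (14.3% to 16.2%) than in any monolayer library (10.1% to 10.9%), while the Nfkb1 and Nfkb2 parts overlap.

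Of the 5 inhibitors, 4 had a larger log2 fold change than any subunit, and Nfkbib did not. Nfkbia (gene ID 18035, chr12:55489409-55492647, minus strand) encodes IkB-alpha, the fast-acting inhibitor that NF-kB induces against itself. It stood at 19.6, 21.6 and 21.5 CPM in monolayers and at 57.4, 57.1 and 54.8 CPM in spheroids, so the groups lay far apart. The log2 fold change was 1.43 ± 0.05 (adjusted p = 2.17e-22), or 2.70-fold, and 9.24% of tested genes had a larger one. Nfkbie (gene ID 18037, chr17:45555700-45563169, plus strand) encodes IkB-epsilon, another inducible inhibitor, and was less abundant. It stood at 6.83, 6.43 and 5.95 CPM in monolayers and at 12.8, 13.7 and 12.8 CPM in spheroids, 2.05-fold higher, or 1.03 ± 0.09 on the log2 scale (adjusted p = 2.53e-12). Its groups did not overlap either.

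Nfkbib (gene ID 18036, chr7:28758251-28766644, minus strand), which encodes IkB-beta, a classical inhibitor degraded more slowly than IkB-alpha, stood apart from the other inhibitors. Its CPM values were 21.0, 21.0 and 22.6 in monolayers and 25.4, 26.0 and 22.7 in spheroids. The third spheroid library lay just above the highest monolayer, and the log2 fold change was 0.20 ± 0.06 (adjusted p = 0.00525), with a 95% interval of 0.07 to 0.32. Leaving out any 1 library kept the adjusted p between 0.000876 and 0.0428. The intervals of Nfkbia, from 1.33 to 1.53, and of Nfkbib did not overlap. The value of Nfkbib has a limit of its own: 14.5% of its exon bases also lie in exons of Ccer2 and 1.94% in exons of Sirt2, on the opposite strand. Ccer2 had 3 reads over the 3 monolayers and 0 over the 3 spheroids, while Sirt2 stood at 85.0 ± 3.39 (SD, n = 3) in monolayers and at 114.5 ± 0.618 CPM in spheroids.

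Nfkbiz (gene ID 80859, chr16:55811375-55838954, minus strand) had the largest change of the 10. It encodes IkB-zeta, an atypical nuclear family member that is induced by interleukin-1 and Toll-like receptor signals and is needed for full induction of some targets, among them Il6. Its monolayer values were 16.1, 15.7 and 16.0 CPM and its spheroid values 53.1, 51.8 and 50.3 CPM. This was 3.25-fold higher in spheroids, or 1.70 ± 0.05 on the log2 scale (adjusted p = 5.71e-24), and 7.86% of tested genes had a larger one. Tnfaip3 (gene ID 21929, chr10:19000910-19015410, minus strand) encodes a ubiquitin-editing enzyme that shuts down signalling upstream of IKK. It stood at 3.77, 4.44 and 3.64 CPM in monolayers and at 9.15, 9.65 and 9.93 CPM in spheroids. The log2 fold change was 1.28 ± 0.11 (adjusted p = 2.67e-12), or 2.42-fold, and it was 0.77 on the log2(FPKM + 1) scale.

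Set against each other per gene length, the members changed places between the formats. In monolayers the order by mean FPKM was Rela at 35.5 ± 0.262, Nfkb1 at 23.3 ± 0.639, Nfkb2 at 18.3 ± 0.460, Nfkbib at 16.1 ± 0.690 and Nfkbia at 13.5 ± 0.771. Relb followed at 9.26 ± 0.421, Nfkbiz at 4.32 ± 0.0306, Nfkbie at 2.66 ± 0.165, Rel at 1.31 ± 0.123 and Tnfaip3 at 0.893 ± 0.0929 FPKM (SD, n = 3), and no neighbours in that order overlapped. In spheroids Nfkbia had moved from rank 5 to rank 2, at 37.3 ± 0.984 FPKM, below Rela at 41.4 ± 2.01 and above Nfkb1 at 29.6 ± 0.212. Nfkb2 followed at 24.3 ± 0.575, Nfkbib at 18.9 ± 1.29, Relb at 17.6 ± 1.04, Nfkbiz at 14.6 ± 0.397, Nfkbie at 5.57 ± 0.220, Tnfaip3 at 2.22 ± 0.0851 and Rel at 0.877 ± 0.0451 FPKM. Nfkbib and Relb overlapped in spheroids and were the only neighbours there that did.

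The inhibitors can also be read against Rela within each library, which removes any scaling common to both genes. The FPKM ratio of Nfkbia to Rela was 0.353, 0.395 and 0.392 in monolayers and 0.921, 0.865 and 0.920 in spheroids. Nfkbiz went from 0.122 ± 0.000706 to 0.352 ± 0.0133 per Rela, Nfkbie from 0.0751 ± 0.00459 to 0.135 ± 0.00294 and Tnfaip3 from 0.0252 ± 0.00281 to 0.0537 ± 0.00411 (SD, n = 3). For these 4 genes the formats did not overlap. The ratio of Nfkbib to Rela did overlap, at 0.439 to 0.474 in monolayers and 0.443 to 0.471 in spheroids. Nfkbia mRNA was below Nfkbib mRNA in all 3 monolayers, at ratios of 0.805 to 0.885, and above it in all 3 spheroids, at 1.90 to 2.08. The FPKM of the 3 classical inhibitors Nfkbia, Nfkbib and Nfkbie summed to 0.368 ± 0.0172 of that of the 5 subunits in monolayers and to 0.543 ± 0.0136 in spheroids.

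**Figure D4:**
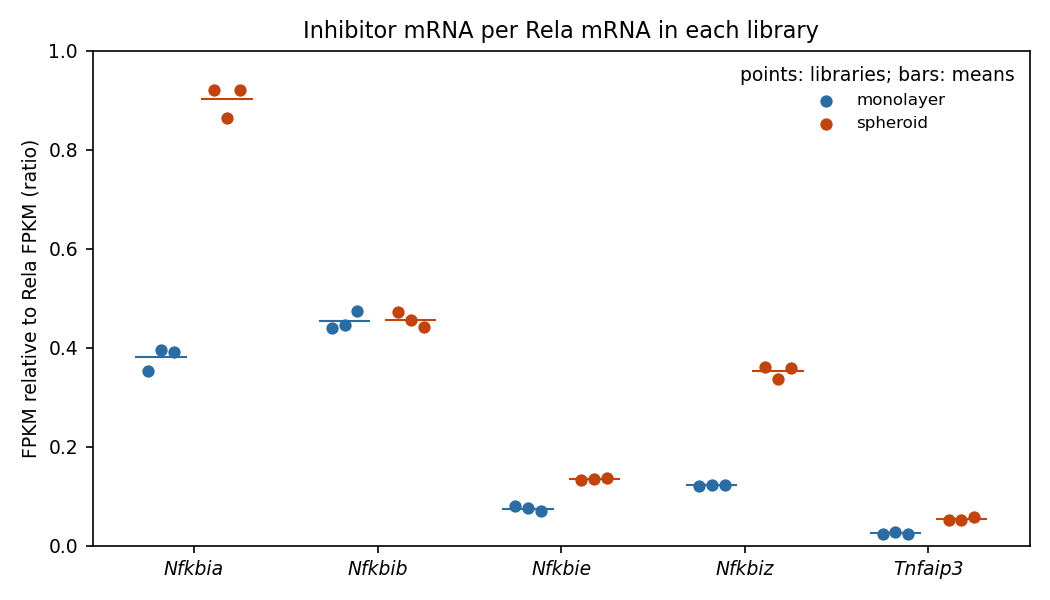
FPKM of each inhibitor gene divided by the FPKM of Rela in the same library, for 3 monolayer (blue) and 3 spheroid (orange) libraries, with bars at the means. Nfkbia goes from between 0.353 and 0.395 to between 0.865 and 0.921, whereas the points of Nfkbib overlap between the formats.

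Because NF-kB drives several of its own family's genes, the sequence before the transcription start was searched for the kB element, the DNA site that NF-kB binds. RefSeq promoters (GRCm38.p6), each 250 bases before to 50 after a start, matched 7 of the 10 members: Rela, Rel, Nfkb2, Nfkbia, Nfkbib, Nfkbie and Tnfaip3. Relb, Nfkb1 and Nfkbiz had no entry. A narrow form of the element, GGGNNTTTCC on either strand, was present in 4 of these 7 genes, namely Nfkbia, Tnfaip3, Nfkb2 and Rel, and in 1.63% of all 32851 promoters, 1.89% of the 27025 genes they belong to and 2.06% of the 10697 tested genes with an entry. A loose form that contains it, GGGNNNNNCC, was present in 6 of 7, all but Nfkbib. It was common elsewhere too, in 50.8% of all promoters, 53.5% of their genes and 71.9% of the tested genes with an entry. The 250 bases before the start are shown for the 4 genes with the narrow form and for Nfkbib, the inhibitor with the smallest change. Each is on its gene's own strand, and capitals mark matches to the narrow form, which read as its reverse complement where the match is on the opposite strand:
Nfkbia (chr12:55492648-55492897, minus strand): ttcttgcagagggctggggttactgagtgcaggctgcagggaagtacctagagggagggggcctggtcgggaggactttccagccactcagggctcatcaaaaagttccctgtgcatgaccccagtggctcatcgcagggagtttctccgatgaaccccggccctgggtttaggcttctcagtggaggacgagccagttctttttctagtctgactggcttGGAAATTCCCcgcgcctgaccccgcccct
Tnfaip3 (chr10:19015411-19015660, minus strand): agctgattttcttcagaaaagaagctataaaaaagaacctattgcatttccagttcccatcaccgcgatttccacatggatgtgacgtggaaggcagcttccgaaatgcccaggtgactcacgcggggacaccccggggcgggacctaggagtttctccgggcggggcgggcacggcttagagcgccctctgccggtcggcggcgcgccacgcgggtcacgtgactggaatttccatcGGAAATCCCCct
Nfkb2 (chr19:46304487-46304736, plus strand): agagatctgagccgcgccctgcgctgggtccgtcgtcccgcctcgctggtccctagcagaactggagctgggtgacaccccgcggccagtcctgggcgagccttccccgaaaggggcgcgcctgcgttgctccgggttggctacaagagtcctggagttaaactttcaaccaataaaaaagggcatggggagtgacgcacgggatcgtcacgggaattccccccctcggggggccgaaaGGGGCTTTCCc
Rel (chr11:23770970-23771219, minus strand): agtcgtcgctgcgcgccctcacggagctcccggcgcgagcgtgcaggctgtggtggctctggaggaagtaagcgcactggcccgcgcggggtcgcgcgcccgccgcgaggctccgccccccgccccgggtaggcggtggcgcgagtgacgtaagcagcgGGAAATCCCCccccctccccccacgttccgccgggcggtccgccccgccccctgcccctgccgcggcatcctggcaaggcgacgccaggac
Nfkbib (chr7:28766645-28766894, minus strand): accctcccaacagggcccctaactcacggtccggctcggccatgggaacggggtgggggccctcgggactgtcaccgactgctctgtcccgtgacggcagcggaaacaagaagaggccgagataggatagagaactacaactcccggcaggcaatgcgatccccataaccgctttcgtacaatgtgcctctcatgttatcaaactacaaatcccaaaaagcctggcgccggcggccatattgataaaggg
Read from the start, the match lies at positions -29 to -20 in Nfkbia, -12 to -3 in Tnfaip3, -11 to -2 in Nfkb2 and -91 to -82 in Rel. Tnfaip3 has a further listed promoter without the narrow form. Nfkb2 has 3 listed promoters, and the other 2 share a further match, GGGACTTTCC, at chr19:46305705-46305714. Of the 4 genes with a narrow match, Nfkbia and Tnfaip3 were over 2-fold higher in spheroids, Nfkb2 was 1.29-fold higher and Rel was lower. Of the genes with an entry but no narrow match, Nfkbie was 2.05-fold higher, and Rela and Nfkbib were each 1.15-fold higher. Across all tested genes with a promoter entry, 40.9% of the 220 with the narrow form were higher in spheroids, against 36.1% of the 10477 without it. These matches describe letters in a window and were not tested as binding sites.

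The genes around the family were read from lists of the pathway's steps, each given as a count beside the 37.1% of all tested genes that were higher and the 37.1% that were lower. Of 12 ligands, 5 passed the filter on low counts, and 3 of these were higher while 2 did not pass the test. Without the filter, 11 were tested and 4 were higher. Tnfsf11, which encodes RANKL, the osteoclast-forming signal, rose by 2.74 ± 0.05 (SE) on the log2 scale, from 14.8 ± 0.818 to 98.7 ± 5.54 CPM (SD, n = 3). Il33, an alarmin of the interleukin-1 family, rose by 1.49 ± 0.05, from 16.7 ± 0.0267 to 46.9 ± 1.25 CPM. The classical inducers were close to the detection limit. Tnf had 13 reads over the 3 monolayers and 16 over the 3 spheroids, a ratio of 1.21 with a 95% counting interval of 0.545 to 2.73. Il1a had 3 and 47 reads, a ratio of 15.4 with an interval of 4.95 to 77.3, and Il1b had 0 and 3 reads. These intervals cover counting error only.

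Of 12 tested receptor genes 8 rose and 3 fell, and their median was 0.71 on the log2 scale. Tlr2, a sensor of bacterial lipoproteins, rose by 1.43 ± 0.07 and Tnfrsf1b, the inducible TNF receptor, by 1.31 ± 0.04. Tlr4, the endotoxin receptor, rose by 1.04 ± 0.05 and Tnfrsf1a, the broadly expressed TNF receptor, by 0.58 ± 0.03, from 283 ± 7.28 to 422 ± 3.93 CPM. Il1r1, the interleukin-1 receptor, rose by only 0.14 ± 0.03. Its co-receptor gene Il1rap fell by 0.45 on the log2 scale, and Tlr3, a sensor of double-stranded RNA, fell by 0.25.

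The adaptors and kinases between receptor and NF-kB had the smallest median of the 5 pathway lists. Of 34 tested genes 16 rose and 8 fell, with a median of 0.11, and 3 of the 16 rose by 1.5-fold or more. Of all tested genes 19.0% met that last rule. The IKK complex itself moved little: Ikbkg, the regulatory subunit, rose by 0.26 ± 0.04, Chuk, a catalytic subunit, fell by 0.16, and Ikbkb, the other catalytic subunit, stood at 0.09 ± 0.05 (adjusted p = 0.0980). Map3k7, the kinase that activates IKK, stood at 0.06 ± 0.04 (adjusted p = 0.126). Traf6, the ubiquitin ligase of the interleukin-1 and Toll-like receptor routes, rose by 0.64 ± 0.06, and Btrc, which encodes a ligase subunit that targets IkB for destruction, by 0.22 ± 0.05. The largest rises were in Map3k8, a kinase held in check by the Nfkb1 precursor, at 1.12 ± 0.14, and Ikbke, an inducible IKK-related kinase, at 0.99 ± 0.06. Map3k14, the kinase of the slower branch, stood at 21.0, 18.6 and 16.7 CPM in monolayers and at 14.8, 14.1 and 13.8 CPM in spheroids. It fell by 0.40 on the log2 scale in the same spheroids in which Relb and Nfkb2 were higher. These are mRNA levels, and a link between the changes was not tested. Ube2n, a ubiquitin-conjugating enzyme of the pathway, fell by 0.51.

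Other negative regulators gave a mixed picture. Of 18 tested genes 10 rose and 3 fell, with a median of 0.16. Zc3h12a, which encodes an RNA-degrading enzyme that limits cytokine mRNA, rose by 2.09 ± 0.06, from 12.4, 11.9 and 13.4 to 55.4, 50.5 and 54.2 CPM. Tnip1, a binding partner of the Tnfaip3 product, rose by 0.76 ± 0.04, and Bcl3, an atypical nuclear IkB, by 0.61 ± 0.05. The deubiquitinase gene Cyld, which restrains the same upstream steps as Tnfaip3, fell by 0.40. Commd1, whose product promotes turnover of Rela protein, fell by 0.45, and Pdlim2, which encodes an actin-associated protein also known to promote loss of nuclear Rela protein, fell by 1.32, from 59.1 ± 1.38 to 23.6 ± 0.131 CPM.

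Genes known as NF-kB targets outside the family were mostly higher, with 21 of 28 tested genes up, 3 down and a median of 1.11. This list, like the others, was chosen with earlier results of these data known. Its count and median are therefore descriptions and no independent reading of NF-kB activity. Il6, which encodes interleukin-6 and depends on the Nfkbiz product in other cells, rose by 1.93 ± 0.07, from 6.37, 7.08 and 6.73 to 26.1, 24.7 and 26.0 CPM. The chemokine genes Cxcl1 and Ccl2 rose by 1.62 ± 0.09 and 1.16 ± 0.07. Saa3, an acute-phase gene, and Mmp3, a matrix protease gene, rose by 8.12 ± 0.09 and 7.51 ± 0.06. Saa3 had 24 monolayer reads and can share reads with other serum amyloid genes, so its value is uncertain. Gadd45b, a stress gene, fell by 1.12 and Csf1, the macrophage growth factor gene, by 1.03. The adhesion genes Icam1 and Vcam1 were chosen for mention after their values were seen. Icam1 stood at 0.04 with an adjusted p of 0.487. Vcam1 went from between 215.5 and 224.1 CPM in monolayers to between 293.5 and 309.8 CPM in spheroids.

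**Figure D5:**
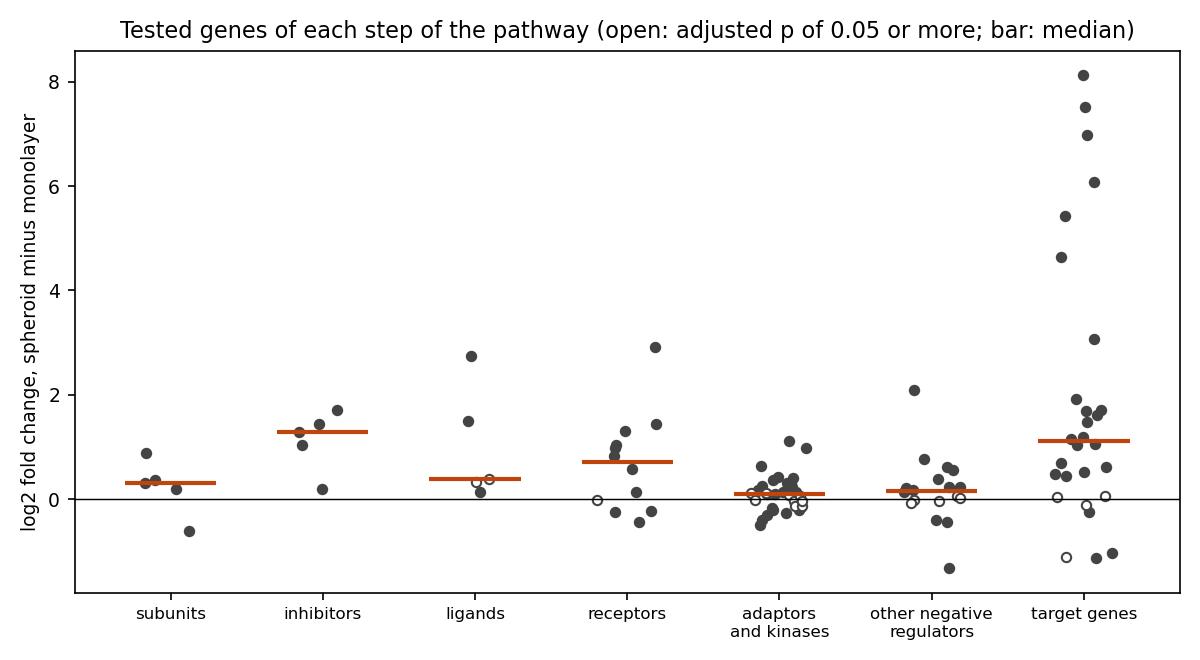
Log2 fold change (spheroid minus monolayer) of every tested gene in the 7 lists, from subunits to target genes. Filled points passed an adjusted p of 0.05, open points did not, and bars mark medians, which are 0.31 for subunits, 1.28 for inhibitors, 0.11 for adaptors and kinases and 1.11 for targets. The lists were chosen with earlier results of these data known.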

How the data were processed

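Total RNA of spheroid and monolayer cultures was sequenced on the DNBSEQ platform, per the labels' protocols, and the reads were mapped to the mouse build GRCm38.p6 by HISAT (submitters' processing notes). Its version, how reads were counted, on which annotation and whether by strand: not given in the sources used here. Both tables are the authors' own: they deposited expected counts (estimated reads per gene, 28.9% to 30.6% of them with decimals) and FPKM, per the file headers. Libraries were grouped by title. Counts were rounded, filtered with filterByExpr at a minimum count of 10 and tested with edgeR 4.0.16 in R 4.3.3, using TMM factors and robust quasi-likelihood fits. P-values were adjusted by Benjamini-Hochberg over all 13708 tested genes at a threshold of 0.05. SEs come from the F statistic, and intervals are at 95%. Where a pair of replicates had 40 or more reads for a gene, they differed by more than counting noise (mean chi-square 1.90 to 2.91). Each library was counted once, but this spread cannot tell separate cultures from repeat preparations.

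The members, gene lists and tests were chosen with earlier results of these data known. Text names all members, the 2 largest rises and falls of each pathway list among called genes of at least 5 CPM, and a fixed panel. Icam1 and Vcam1 lie outside that rule. Of the tables' gene IDs, 17948 of 18002 matched RefSeq GRCm38.p6. Exon overlaps were read from GENCODE on the same build. The fit was checked on simulated data. Alternatives were other scalings, filters and thresholds, DESeq2 1.42.0, voom and FPKM fits in limma 3.58.1 at pseudocounts of 1 and 0.1, a replicate block and leaving out each library.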

Additional observations from a re-analysis of the deposited data

How the results depend on the processing

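All 10 members kept their direction and an adjusted p below 0.05 under all 17 alternatives, except that a rule of at least 1.5-fold as well left 5 of the 9 higher members called. Rela at 0.20, Nfkb1 at 0.31, Nfkb2 at 0.36 and Nfkbib at 0.20 on the log2 scale fell under that rule by its construction. The same rule left 2606 of all genes higher and 1748 lower, 0 receptors lower, 3 adaptors and kinases higher and 0 lower, and 3 other negative regulators higher and 1 lower. All other counts stayed within 1.5 times their main value. Leaving out 1 library gave 9 members higher and 1 lower each time. The median log2 fold change over all genes lay between -0.02 and 0.03 under the other scalings. On log2(FPKM + 1) Rel stood at -0.30 and Tnfaip3 at 0.77. With a replicate block the counts were 5120 higher and 5118 lower over all genes, again 9 and 1 among the members. Whether same-numbered libraries belong together is not given in the labels. The correlations of their deviations were -0.049, 0.071 and 0.060, and not every library correlated best with its own number. With 3 libraries per format these values cannot decide whether the libraries were paired. Searching only the 150 bases before the start put the share of promoters with the narrow and loose kB forms at 0.925% and 35.4%. Depth limits Tnf, Il1a and Il1b, which the filter on low counts left out. The fit with no filter tested 11 ligands in place of 5 and called 4 higher in place of 3, and 4 of the fits without 1 library tested 6 and called 4.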
